A study of Mus musculus with 12 samples.

Results

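Regulatory T cells (Tregs) are CD4+ T cells that hold immune responses in check and are defined by the transcription factor Foxp3. Those described here carry 2 floxed Ezh2 alleles (KO), and the values compare their CD62Llo with their CD62Lhi fraction, 3 libraries against 3, which are 6 of the 12 libraries of the series. Both KO groups came from spleen and lymph nodes (LN) of female C57BL/6 mice labelled Foxp3YFP-Cre/Foxp3WT;Ezh2fl/fl. The comparator groups (HET) were the same fractions of Foxp3YFP-Cre/Foxp3WT;Ezh2fl/+ females, with 2 CD62Lhi and 3 CD62Llo libraries used. HET CD62Lhi replicate 3 was left out, since its label says that it was removed for low read counts. All 4 groups therefore carry the YFP-tagged Cre in 1 of their Foxp3 alleles and at least 1 floxed Ezh2 allele, and none has 2 unmodified Ezh2 alleles. Foxp3 lies on the X chromosome, so in such females the Cre is expressed only in the Tregs that keep that X chromosome active. Whether the sort took YFP+ cells alone is not given in the sources used here, nor are ages, and nothing says that replicates are different animals. The p-values then measure the spread between these libraries, which may be technical.

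Resting Tregs are CD62Lhi and recirculate through lymphoid organs, while activated or effector Tregs are CD62Llo and gain receptors for tissues, inhibitory receptors and suppressive molecules. Ezh2 is the methyltransferase of the Polycomb repressive complex PRC2, which places the repressive mark H3K27me3 on histones at silenced genes. The comparison asks which differences between activated and resting Tregs are present when Ezh2 is floxed on both alleles.

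Expression was given as FPKM, a fragment count scaled to the length of the transcript and to the mapped fragments of the library, a unit that allows levels to be compared between genes. Log2 changes below are differences of log2(FPKM + 1), CD62Llo minus CD62Lhi, so changes of genes with low FPKM come out too small. A gene was called when the adjusted p of limma (Benjamini-Hochberg over 11431 tested genes) was under 0.05. The read counts behind the values were not used here, so depth could be set only relative to KO CD62Lhi replicate 1. On that scale the other KO CD62Lhi libraries stood at 0.936 and 0.48, the KO CD62Llo libraries at 0.283, 0.439 and 0.796, and the HET libraries between 0.412 and 0.623. KO CD62Llo replicate 3 stood apart from its group, with Pearson r of 0.949 to 0.950 with the other 2 CD62Llo libraries and 0.955 to 0.963 with the KO CD62Lhi libraries. Results are therefore also given without it.

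The labels were first set against the genes that define them. Foxp3 had FPKM of 91.7, 84.7 and 87.0 in CD62Lhi and 80.0, 75.9 and 96.8 in CD62Llo, so the groups overlapped (log2 -0.07, SE 0.09, adjusted p = 0.677). Il2ra, the high-affinity chain of the IL-2 receptor, overlapped as well, at 111, 117 and 133 against 110, 122 and 138. Ikzf2, the Treg factor Helios, was 33.5, 29.3 and 30.3 in CD62Lhi and 46.9, 43.3 and 48.0 in CD62Llo and rose by 0.56 (SE 0.10, adjusted p = 0.00472). Foxp3 and Il2ra, the defining markers of the labelled cell type, were thus present in all 6 libraries.

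Ezh2 itself (mm10 chr6:47530274-47595030) had FPKM of 9.15, 11.5 and 11 in the KO resting fraction and 12.5, 16.8 and 14.4 in KO CD62Llo, against 12.7 and 12.5 in HET CD62Lhi and 17.8 to 20.5 in HET CD62Llo. The whole-gene FPKM does not part the floxed stretch from the rest of the transcript, so these levels check the genotype only in part. Between the KO fractions Ezh2 was called higher (log2 0.43, SE 0.11, adjusted p = 0.0282). That call was lost without CD62Lhi replicate 1 (adjusted p = 0.098) or replicate 3 (0.054), and without CD62Llo replicate 2 (0.0935) or replicate 3 (0.0571). Over all alternatives but the fit that included HET CD62Lhi replicate 3, the adjusted p of Ezh2 lay between 0.00401 and 0.098.

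Between the KO fractions 1365 genes were higher in CD62Llo, 11.9% of those tested, and 487 were lower, 4.26%. Every count of list members below is to be read against these shares. The log2 change was at least 1 in 257 of the higher genes and -1 or less in 40 of the lower genes. No overlap between the 2 groups was seen for 24.3% of all tested genes in the higher direction and for 10.5% in the lower direction. Without KO CD62Llo replicate 3 the counts were 1435 and 539, and 1214 of the higher and 407 of the lower calls were kept. This library was the least changed of the 3 CD62Llo libraries for 763 of the 1365 higher genes and 309 of the 487 lower genes. Each of the 6 fits that left out 1 KO library called 822 of the higher and 203 of the lower genes. The share of higher genes among the calls, 73.7%, rested on the scaling: quantile normalization gave 954 higher and 797 lower genes, and median centring gave 1041 and 901. The median log2 change of all tested genes was 0.05 in the KO comparison.

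Inhibitory receptors, which curb T cell activation, were among the genes that rose most. Tigit (chr16:43648861-43664184), which competes with an activating receptor for ligands on antigen-presenting cells, had FPKM of 1.70, 2.00 and 4.06 in CD62Lhi and 25.4, 37.9 and 45.7 in CD62Llo. The highest CD62Lhi value lay far under the lowest CD62Llo value, and the log2 change was 3.40 (SE 0.31, adjusted p = 1.64e-04, and 3.21 without CD62Llo replicate 3). Lag3 (chr6:124904359-124911705), which binds MHC class II, had FPKM of 5.22, 6.18 and 9.40 against 51.1, 74.1 and 76.6 (log2 3.12). Pdcd1, which encodes PD-1, was even within each fraction, at 11.8, 11.4 and 11.1 against 49.2, 56.2 and 43.9 (log2 2.02). Ctla4, which takes costimulatory ligands off antigen-presenting cells, was already high in the resting fraction, at 59.1, 67.9 and 66.6, and reached 128, 154 and 145 (log2 1.13). Havcr2, which encodes Tim-3, stayed low in level while it rose, from 0.15, 0.217 and 0.280 to 1.70, 1.71 and 1.92. Of 16 tested inhibitory receptor genes 11 rose and 0 fell, with a median log2 change of 0.76 against 0.05 for all tested genes. The 5 without a call included Klrg1, described with the comparator below, and Cd244 was not tested because its FPKM was too low.

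**Figure D1:**
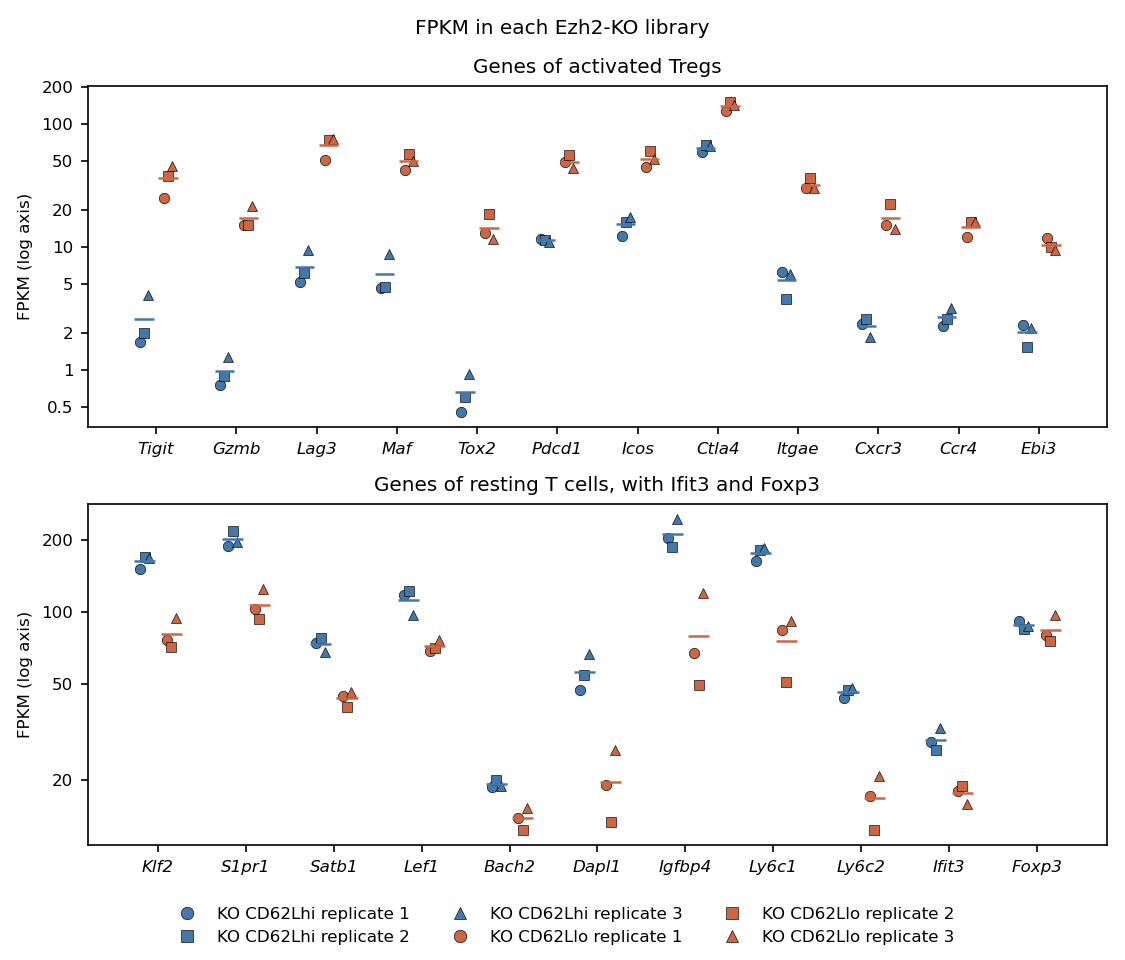
FPKM on a log axis in each KO library for 12 genes of activated Tregs (upper panel) and for 9 genes that mark resting T cells together with Ifit3 and Foxp3 (lower panel); points are libraries, marked by replicate, and bars are group means. The fractions do not overlap for any gene shown except Foxp3. Of the CD62Llo libraries, replicate 3, the triangle, lies nearest to the CD62Lhi points for all 9 genes that mark resting T cells, and not for Ifit3.

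The transcription factors of effector Tregs rose with few exceptions. Maf (chr8:115703253-115706894), which drives Il10 and follicular genes in T cells, had FPKM of 4.63, 4.71 and 8.81 in CD62Lhi and 42.7, 57.3 and 50.8 in CD62Llo (log2 2.90, SE 0.20, adjusted p = 4.61e-05, and 2.89 without CD62Llo replicate 3). Tox2, a factor of follicular T cells, went from 0.456, 0.602 and 0.929 to 13, 18.5 and 11.6 (log2 3.19). Tox2 was near 0 in the resting fraction, and for both factors the fractions did not overlap. Nfil3, a basic leucine zipper factor, rose by 1.84, Id2, an inhibitor of E proteins, by 1.52, and Ahr, the receptor for aryl hydrocarbons, by 1.40. Irf4 and Batf, which act together at effector Treg genes, had substantial levels in the resting fraction. Irf4 went from 9.34, 9.95 and 13.4 to 19.8, 28.9 and 22.4, and Batf from 41.6, 34.9 and 36.4 to 69.2, 85.6 and 69.8. Tbx21, the Th1 factor, rose by 0.98 and Bcl6, the follicular factor, by 0.72, whereas Gata3, the Th2 factor, overlapped between the fractions at 17.1 ± 1.84 and 16.8 ± 0.848 (SD, n = 3 each). Of 27 tested factors 21 rose and 0 fell, against 11.9% and 4.26% of all tested genes. The list holds Eea1, an endosomal tethering protein and no transcription factor, which rose by 1.68. Prdm1, which encodes the effector factor Blimp-1, was not called and is described below.

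Promoters of raised genes are shown because the strongly raised genes differed in base composition and in a binding motif from the tested genes at large. A RefSeq promoter (GRCm38.p6, 250 bases before to 50 after the start) was matched for 8382 of the 11431 tested genes. The ratio of observed to predicted CpG had a median of 0.78 over all of them, 0.70 over the genes higher in CD62Llo, and 0.52 over the 191 that rose by at least 1. The lower genes had a median of 0.70, and the 26 that fell by at least 1 had 0.23, so a low ratio was shared by strongly changed genes of both directions. The letters TGANTCA, the core that AP-1 factors such as the Batf and Jun proteins bind and which read the same on both strands, were found in 390 of all 8382 promoters (4.65%) and in 22 of the 191 (11.5%). Among promoters with a ratio under 0.6 the letters were in 192 of 2219 (8.65%) and in 21 of the 104 of genes that rose by at least 1 (20.2%). Of the 26 promoters of genes that fell by at least 1, 1 held them (3.85%). The forkhead letters TGTTTAC, searched on both strands, were in 2.43% of all promoters and 3.14% of the 191. Among promoters with a ratio under 0.6 they were in 68 of 2219 (3.06%) and in 6 of the 104 (5.77%). A higher share among raised genes with a low ratio was thus seen for both motifs, with few forkhead matches. A match is a run of letters and does not show binding. Below are 4 of the 22, printed on the gene's strand with the AP-1 letters in capitals, at chr14:56262361-56262417 for Gzmb, chr9:114496656-114496712 for Ccr4, chr17:57194310-57194366 for Tnfsf14 and chr5:92348932-92348988 for Cxcl10, all on the minus strand. The capitals begin 58, 143, 160 and 74 bases before the RefSeq start, in the same order.
Gzmb: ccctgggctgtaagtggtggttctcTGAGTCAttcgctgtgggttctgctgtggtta
Ccr4: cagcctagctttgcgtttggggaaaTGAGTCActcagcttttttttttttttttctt
Tnfsf14: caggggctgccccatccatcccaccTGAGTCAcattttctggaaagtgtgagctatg
Cxcl10: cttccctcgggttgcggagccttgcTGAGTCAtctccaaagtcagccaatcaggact

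Cxcl10, an interferon-induced chemokine that draws Cxcr3+ cells, is named for its promoter after its values were seen. It rose from 0.936, 0.517 and 1.05 to 6.87, 7.69 and 5.35 (log2 2.06, adjusted p = 1.42e-04).

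Receptors that guide Tregs into tissues and follicles rose as a set of many members. Ccr4 (chr9:114490316-114496544), a receptor for skin chemokines, had FPKM of 2.28, 2.59 and 3.21 in CD62Lhi and 12.1, 16.0 and 16.0 in CD62Llo (log2 2.09, SE 0.18, adjusted p = 1.15e-04, and 2.02 without CD62Llo replicate 3). Cxcr3, the receptor for interferon-induced chemokines, went from 2.38, 2.61 and 1.86 to 15.1, 22.5 and 14.1 (log2 2.45). Cxcr5, the receptor for the follicle, went from 9.99, 11 and 11.7 to 43.4, 54.6 and 32.1 (log2 1.87). The fractions did not overlap for any of these 3 receptors. Ccr2, the receptor for monocyte-attracting chemokines, was near 0 in CD62Lhi, at 0.297, 0.277 and 0.637, and spread widely in CD62Llo, at 4.68, 6.00 and 10.9 (log2 2.48). Gpr15, a colon-homing receptor, rose by 1.92, Ccr8 by 1.46, Ccr6 by 1.54 and Cxcr6 by 1.42. Of 24 tested receptors 14 rose and 2 fell, with a median log2 change of 1.08. The 2 that fell were S1pr1 and S1pr4, receptors for sphingosine-1-phosphate, of which S1pr1 lets lymphocytes leave lymph nodes. Ccr7, which leads cells into lymph nodes, was not called, at 210, 236 and 188 against 196, 229 and 164.

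Among adhesion molecules Itgae, the integrin chain CD103 that binds epithelium, had FPKM of 6.29, 3.81 and 6.00 in CD62Lhi and 30.2, 36.3 and 30.4 in CD62Llo (log2 2.40, SE 0.19, adjusted p = 7.95e-05). Cd44, the hyaluronan receptor used as an activation marker, was 10.3, 10.5 and 10.4 against 24.8, 29.4 and 19.5 (log2 1.15, and 1.30 without CD62Llo replicate 3). The CD62Lhi values of Cd44 were nearly equal, and CD62Llo replicate 3 was the lowest of its group. Itgb8, which frees TGF-beta from its latent form, rose by 1.30 and Alcam by 1.40, while Itgb3 fell by 0.92. Of 19 tested adhesion genes 9 rose and 2 fell, but after median centring 6 rose and 6 fell.

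Costimulatory receptors and ligands of the TNF superfamily rose in 16 of 26 tested cases, with 0 falling and a median log2 change of 0.46. Icos, a CD28 relative that sustains effector Tregs, had FPKM of 12.4, 16.1 and 17.6 in CD62Lhi and 45.2, 60.2 and 52.4 in CD62Llo (log2 1.71, SE 0.17, adjusted p = 2.14e-04). Tnfsf14, the ligand LIGHT, went from 2.39, 2.19 and 2.51 to 14.4, 15.1 and 10.3 (log2 2.07, and 2.23 without CD62Llo replicate 3). Tnfsf11, the ligand RANKL, rose by 1.74, Tnfrsf8, which encodes CD30, by 1.8 and Tnfrsf9, which encodes 4-1BB, by 0.99. Tnfrsf18, which encodes GITR, was 169, 161 and 164 against 173, 178 and 188, a log2 change of 0.12 that was not called.

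Molecules through which Tregs suppress rose in 14 of 19 tested cases and fell in 2, with a median log2 change of 1.13. Without CD62Llo replicate 3 the counts were 12 and 1. Gzmb (chr14:56258858-56262260), the protease granzyme B, had FPKM of 0.754, 0.897 and 1.27 in CD62Lhi and 15.3, 15.3 and 21.6 in CD62Llo (log2 3.21, SE 0.21, adjusted p = 3.76e-05, and 3.05 without CD62Llo replicate 3). Ebi3, a subunit of the cytokine IL-35, went from 2.33, 1.54 and 2.21 to 11.9, 10.1 and 9.46 (log2 1.93). Nt5e, the ectoenzyme CD73 that makes adenosine, was 39.3, 38.8 and 24.8 against 101, 119 and 78.3 (log2 1.51). These rises were seen in every CD62Llo library. Fgl2, a secreted fibrinogen-like suppressor, rose by 1.55. Il10, the anti-inflammatory cytokine, was 0.0338, 0.0731 and 0.0775 against 1.05, 1.82 and 7.67, so its groups did not overlap but its CD62Llo values spread over a wide range. The log2 change of Il10 was 1.8 with adjusted p = 0.0633, and it was past the threshold without CD62Llo replicate 1 (log2 2.22, adjusted p = 0.0448). Without CD62Llo replicate 3 the log2 change was 1.18 with adjusted p = 0.137. Over all alternatives but the fit that included HET CD62Lhi replicate 3, the adjusted p of Il10 ranged from 0.0107 to 0.147.

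Cytotoxic genes did not move together. Prf1, the pore-forming protein that granzymes need to enter a target cell, had FPKM of 5.74, 6.14 and 4.48 in CD62Lhi and 1.75, 2.06 and 2.15 in CD62Llo, and fell by 1.10 on the log2 scale (SE 0.17, adjusted p = 0.00279) while Gzmb rose. Klrd1, the killer lectin CD94, was 1.41, 2.22 and 2.00 against 0.465, 0.281 and 0.869. Nkg7, a granule protein, rose by 0.92. Of 15 tested genes 5 rose and 4 fell, against 11.9% and 4.26% of all tested genes. Without CD62Llo replicate 3 the counts were 3 and 3. The summed FPKM of 12 markers of CD8 T and NK cells was 38.2, 42.75 and 31.9 in CD62Lhi and 23.75, 27.7 and 29.4 in CD62Llo. Of its 5 tested members 2 fell and 2 rose. The CD8 coreceptor chain Cd8a fell by 1.11 on the log2 scale, and its partner Cd8b1 was 27.2, 28.1 and 22.8 against 9.79, 10.2 and 14.3 (log2 -1.13, adjusted p = 0.00125). Xcl1, a chemokine of CD8 T and NK cells, was 2.38, 4.39 and 1.29 against 9.81, 10.8 and 8.93 (log2 1.64, adjusted p = 0.00274). Klrb1c, a killer lectin of NK cells, rose by 0.85 (adjusted p = 0.0277), a call kept without CD62Llo replicate 1 (0.0421) and lost in the other 5 fits without 1 KO library (0.0664 to 0.0797). The part of such cells in the Prf1 and Klrd1 values was not tested. In bulk samples fewer cells of a type and less RNA per cell cannot be told apart.

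Genes of helper lineages rose in 15 of 19 tested cases and fell in 0, with a median log2 change of 0.98. Ifng, the Th1 cytokine, had FPKM of 0.260, 0.502 and 0.213 in CD62Lhi and 1.69, 3.11 and 2.03 in CD62Llo (log2 1.29, SE 0.16, adjusted p = 6.4e-04). Il21, a cytokine of follicular helper cells, went from 0.0585, 0.137 and 0.179 to 2.98, 3.95 and 1.76 (log2 1.75). Both stayed low in level in the CD62Llo libraries. Il5, Il13, Il17a, Il17f, Il22 and Il12rb2 were too low to be tested. The summed FPKM of 8 genes of conventional naive and effector CD4 T cells, which include Ifng, Il21, Il2 and Tbx21, was 38.15, 43.85 and 46.5 in CD62Lhi and 76.0, 90.0 and 61.55 in CD62Llo, and 6 of 7 tested rose. The part of conventional cells in these values was not tested.

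Cytokine receptors split. Il1r2, the decoy receptor for IL-1, had FPKM of 1.06, 0.954 and 2.32 in CD62Lhi and 12.1, 12.8 and 15.4 in CD62Llo (log2 2.60, SE 0.22, adjusted p = 1.03e-04). Il18r1, a chain of the IL-18 receptor, was 15.8, 14.6 and 14.9 against 24.3, 23.8 and 29.5 (log2 0.73). Il4ra, Il6ra, Il17ra, Ifngr2 and Ifnar1 fell, by 0.31 to 0.49 on the log2 scale. Of 28 tested receptors 9 rose and 5 fell, and the median log2 change was 0.05, the same as for all tested genes.

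Genes with known roles in cell shape and migration held some of the largest rises. S100a4, a calcium sensor found in migrating cells, had FPKM of 5.18, 6.42 and 8.55 in CD62Lhi and 44.1, 65.2 and 55.3 in CD62Llo (log2 2.86, SE 0.21, adjusted p = 5.67e-05). S100a11 of the same family was 72.5, 75.0 and 76.5 against 224, 252 and 195 (log2 1.56). Of 24 tested S100, annexin, galectin and cytoskeletal genes 9 rose and 3 fell, against 11.9% and 4.26% of all tested genes. Outside any list, Angptl2, a secreted angiopoietin-like protein, went from 0.961, 1.42 and 1.82 to 17.1, 25.8 and 17.0 (log2 3.12). Asb2, a substrate adaptor of a ubiquitin ligase, went from 0.502, 0.721 and 0.378 to 9.34, 11 and 9.07 (log2 2.82). Actg2, a smooth muscle actin, rose by 2.52, Serpina3g, a protease inhibitor of T cells, by 2.57 and Sccpdh by 2.56.

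Genes of antigen receptor signalling rose in 14 of 32 tested cases and fell in 1. Egr2, a factor induced by that signal, had FPKM of 11.3, 10.6 and 11.2 in CD62Lhi and 21.7, 30.7 and 21.5 in CD62Llo (log2 1.07, SE 0.13, adjusted p = 7.01e-04). Spry1, a brake on the Ras pathway, rose by 1.13 and Dusp1, a phosphatase of MAP kinases, by 1.13. Nr4a3, an orphan nuclear receptor induced by antigen, was 7.11, 6.09 and 5.98 against 14.7, 11.6 and 9.78. Cd69, an early activation antigen, had a log2 change of 0.07 and was not called. Among survival genes, the near-identical copies Bcl2a1a, Bcl2a1b and Bcl2a1d, whose reads are hard to assign, had log2 changes of 1.07, 1.14 and 1.13. Of the survival and death genes, 9 of 24 tested rose and 2 fell, against 11.9% and 4.26% of all tested genes.

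Among metabolic genes, those of glycolysis rose in 7 of 20 tested cases and fell in 0, against 11.9% and 4.26% of all tested genes. The log2 rises reached at most 0.60 for Tpi1, the triose phosphate isomerase (adjusted p = 0.00319), but 1 fell after quantile normalization and 3 after median centring. Of 23 cholesterol synthesis genes limma called 0, with 2 at an unadjusted p under 0.05, and of 8 GIMAP genes 0, with 1. Of 35 tested cell cycle genes 2 rose and 1 fell, which is below the share of rises over all tested genes. Cdkn2c, the inhibitor p18 of cyclin-dependent kinases, was 3.66, 3.30 and 3.69 against 9.21, 12.5 and 9.14 (log2 1.30), and Mcm6, a subunit of the replication helicase, was 32.8, 35.0 and 36.1 against 44.6, 54.3 and 49.7. The proliferation marker Mki67 had a log2 change of 0.24 and Top2a, the mitotic topoisomerase, of 0.15, without a call.

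Polycomb genes moved by small amounts. Of 13 PRC2 genes Ezh2, Jarid2 and Aebp2 rose and 0 fell, but 1 rose with quantile normalization and 2 with median centring. Aebp2, a DNA-binding cofactor, was 52.5, 55.3 and 60.3 against 70.8, 72.2 and 75.7 (log2 0.38, SE 0.06, adjusted p = 0.00399), and the Jarid2 call (log2 0.26, adjusted p = 0.0446) was lost in each of the 6 fits without 1 KO library (adjusted p of 0.0574 to 0.145). Ezh1, the other PRC2 methyltransferase gene, had a log2 change of 0.16 without a call, and of 0.21 with adjusted p = 0.0374 without CD62Llo replicate 3. Of 22 PRC1 genes 4 rose and 0 fell, and with quantile normalization 3 rose and 2 fell. Over all tested genes 11.9% rose and 4.26% fell, so the Polycomb counts are not read as a trait of these lists. The PRC1 rises were led by Cbx6, a chromodomain subunit that binds H3K27me3, at 12.9, 12.4 and 13.8 against 23.9, 24.8 and 22.5 (log2 0.82).

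**Figure D2:**
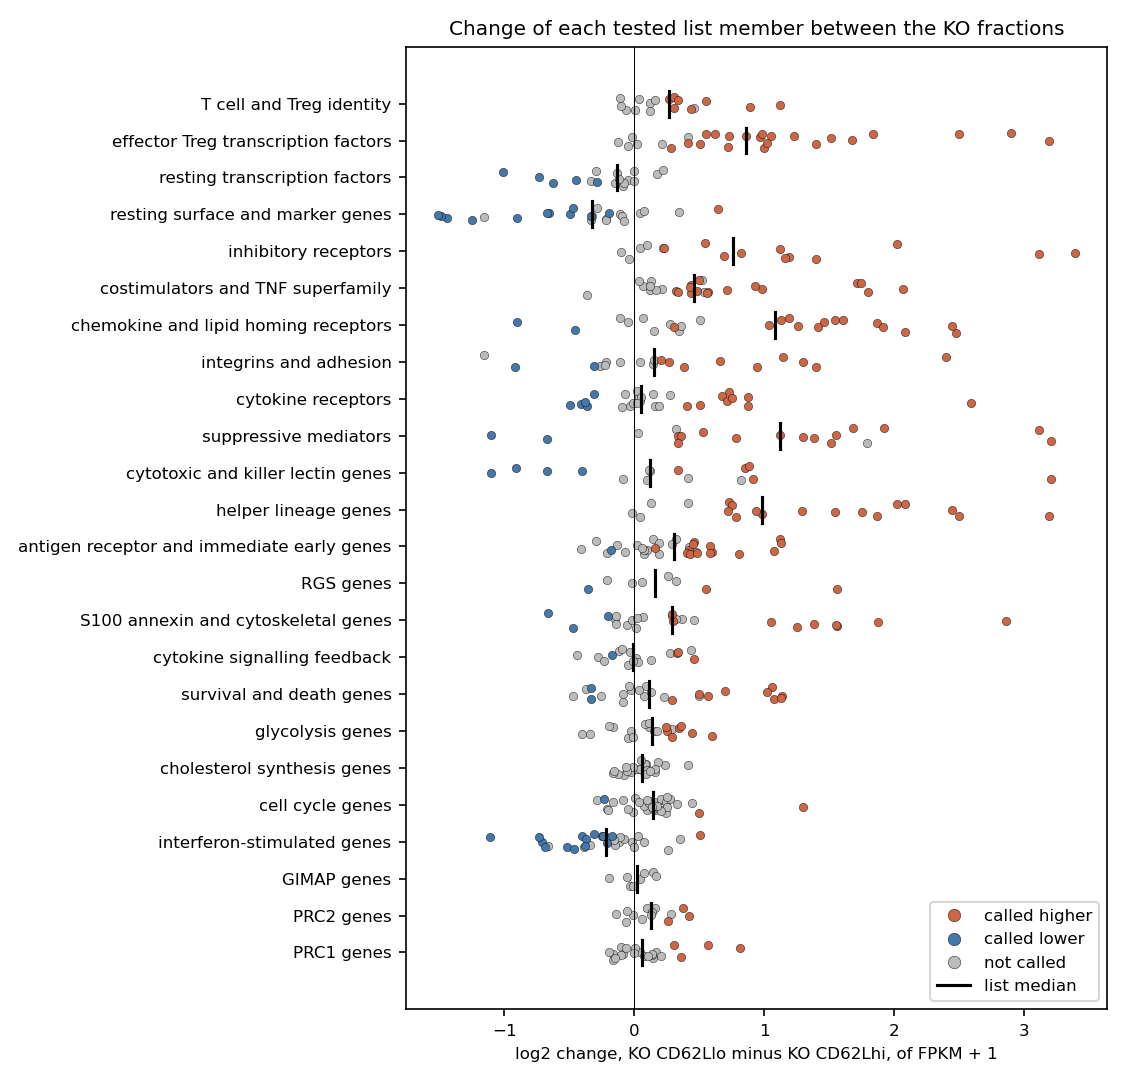
Log2 change of FPKM + 1 between KO CD62Llo and KO CD62Lhi for each tested member of 24 gene lists; orange points were called higher, blue points lower and grey points not called, and the black bar is the median of the list. Medians range from -0.33 for resting surface and marker genes to 1.13 for suppressive mediators.

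Genes of resting T cells moved the other way, by smaller amounts. Klf2 (chr8:72319062-72321654), the factor that keeps S1pr1 on, had FPKM of 151, 170 and 167 in CD62Lhi and 76.2, 71.7 and 94.1 in CD62Llo (log2 -1.01, SE 0.10, adjusted p = 2.59e-04, and -1.13 without CD62Llo replicate 3). S1pr1 was 188, 217 and 195 against 103, 93.1 and 125 (log2 -0.90). Satb1, a chromatin organizer of T cells, was 74.4, 77.9 and 68.0 against 44.4, 40.2 and 46.4 (log2 -0.74). All 3 genes fell in every CD62Llo library. Lef1, a partner of beta-catenin, fell by 0.63, Bach2, a repressor of effector genes, by 0.45 and Klf3 by 0.29. Tcf7, which encodes TCF-1, was 347, 373 and 314 against 348, 402 and 291, so the fractions overlapped (log2 0.00, adjusted p = 1), and Id3 was not called. Of 17 tested resting factors 5 fell and 0 rose, against 4.26% and 11.9% of all tested genes.

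Among surface and marker genes of resting T cells 11 of 24 fell and 1, Igf1r, rose, with 13 and 1 without CD62Llo replicate 3. Dapl1, a marker of naive cells, had FPKM of 47.3, 54.7 and 66.5 in CD62Lhi and 19.0, 13.3 and 26.5 in CD62Llo (log2 -1.51, SE 0.21, adjusted p = 0.00136, and -1.75 without replicate 3). Igfbp4, which binds insulin-like growth factors, was 203, 186 and 243 against 67.2, 49.7 and 120 (log2 -1.49, and -1.84 without replicate 3). Ly6c2 was 43.8, 47.3 and 48.1 against 17.1, 12.4 and 20.7 and Ly6c1 163, 182 and 184 against 84.3, 51.1 and 92.0. These Ly6c copies are similar in sequence, which makes single values uncertain. In all 4 genes CD62Llo replicate 3 was the highest of its group. Il7r, a chain of the IL-7 receptor, was not called (log2 -0.09).

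Interferon-stimulated genes fell in 14 of 32 tested cases and rose in 1, Gbp3, with a median log2 change of -0.21, and without CD62Llo replicate 3 the counts were 11 and 1. Oas2, a sensor of double-stranded RNA, had FPKM of 9.50, 9.23 and 10.4 in CD62Lhi and 3.82, 3.32 and 4.82 in CD62Llo (log2 -1.11, SE 0.16, adjusted p = 0.00179). Ifit3, an antiviral protein, was 28.8, 26.6 and 32.7 against 17.9, 18.9 and 15.8 (log2 -0.71). Here replicate 3 was not the least changed CD62Llo library for Ifit3. Isg15 and Mx1 had log2 changes of -0.02 and -0.01 and were not called, so the members of this group did not fall alike.

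Markers of other cells differed between the fractions and are given with the genes they move with. Of 12 B cell markers 10 were called lower in CD62Llo, and 12 without replicate 3. Their summed FPKM was 108.5, 105.9 and 179 in CD62Lhi and 31.95, 34.4 and 81.7 in CD62Llo. Cd79a, a chain of the B cell receptor, was 24.9, 24.0 and 41.2 against 5.07, 4.23 and 17.1, and Fcer2a, the IgE receptor CD23, was 9.10, 7.94 and 14.2 against 1.2, 1.47 and 5.46 (log2 -1.76, adjusted p = 0.0112). The Cd79a call was lost without CD62Lhi replicate 3 (adjusted p = 0.0646) and without CD62Llo replicate 1 (0.0634) or replicate 2 (0.0686). Over all alternatives but the fit that included HET CD62Lhi replicate 3, its adjusted p lay between 9.01e-04 and 0.0686. The MHC class II gene H2-Ab1, which B and myeloid cells express, was 48.0, 47.6 and 73.2 against 14.8, 19.5 and 27.0 (log2 -1.43), and the part of B cells in it was not tested. CD62Lhi replicate 3 was the highest of all 6 libraries in each of these genes.

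Myeloid genes went the opposite way. Lyz2, the lysozyme of macrophages and neutrophils, had FPKM of 7.60, 10.9 and 8.87 in CD62Lhi and 124, 219 and 25.6 in CD62Llo (log2 3.17, SE 0.63, adjusted p = 0.00833, and 4.05 without replicate 3). Its near-identical neighbour Lyz1 was 1.34, 1.95 and 1.69 against 22.0, 45.2 and 5.01. Apoe, a lipid carrier of macrophages, was 22.0, 32.1 and 27.8 against 194, 352 and 43.9. CD62Llo replicates 1 and 2 were high in all 3 genes and replicate 3 was much lower. The Apoe call (log2 2.38, adjusted p = 0.048) held without replicate 3 (log2 3.23, adjusted p = 0.00378). It was lost without CD62Lhi replicate 1 (adjusted p = 0.135), 2 (0.0993) or 3 (0.107) and without CD62Llo replicate 1 (0.129) or 2 (0.159). The adjusted p of Apoe ranged from 0.00378 to 0.159 over all alternatives but the fit that included HET CD62Lhi replicate 3. The summed FPKM of 15 myeloid markers was 93.7, 107 and 97.65 in CD62Lhi and 273, 441.5 and 122.5 in CD62Llo, and 3 of 9 tested were called higher, or 5 without replicate 3. Csf1r, the macrophage growth factor receptor, was 2.01, 3.43 and 1.55 against 8.59, 15.9 and 2.08 and was not called. The CD62Llo libraries stood in the order of the myeloid sum, replicate 2 above 1 above 3, for some raised genes named above. These included large rises such as Tox2, Angptl2, Asb2, Cxcr3 and Pdcd1, and also S100a11, Cxcr5, Tnfsf14, Cd44, Tnfsf11 and Il21. Other raised genes did not follow that order, among them Tigit, Gzmb, Lag3, Maf, S100a4 and Itgae. The part of myeloid cells in these values was not tested. Markers of red cells and platelets spread over all libraries, from 6.50 to 406, with 0 of 5 tested called.

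**Figure D3:**
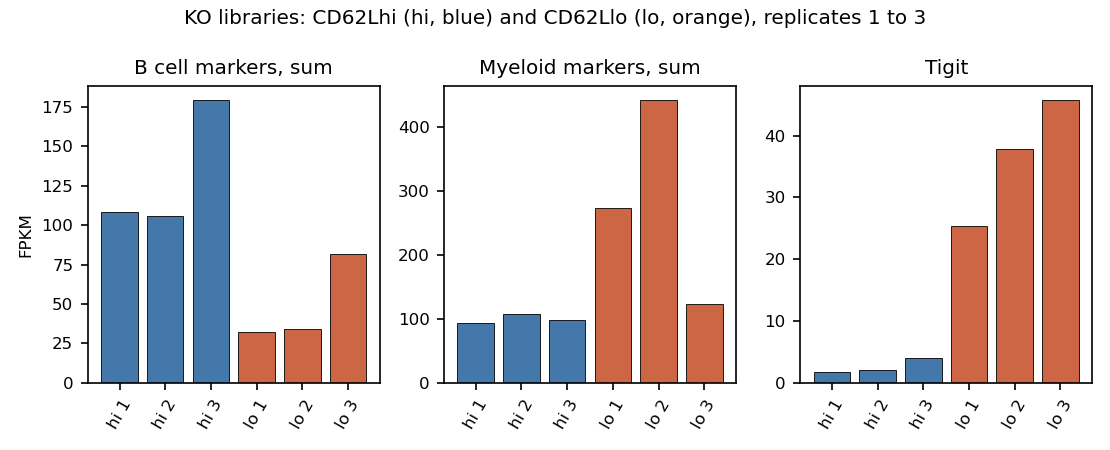
The summed FPKM of 12 B cell markers and of 15 myeloid markers, and FPKM of Tigit in each KO library, with CD62Lhi in blue and CD62Llo in orange and bars starting at 0. CD62Llo replicate 3 has the highest B cell sum (81.7) and the lowest myeloid sum (122.5) of its group, and the highest Tigit (45.7).

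The HET fractions show which of these differences were also present with 1 floxed allele. Of the 1365 genes higher in KO CD62Llo, 1223 (89.6%) were also higher in HET CD62Llo, and these were 56.9% of the 2148 genes higher there (18.8% of all tested). Of the 487 lower genes 443 (91.0%) were lower in HET too, which were 43.7% of the 1015 lower there (8.88%). The 4 groups shared the estimate of spread of each gene. With 2 HET CD62Lhi libraries against 3 in KO, the SE was larger in HET, such as 0.347 against 0.31 for Tigit. The numbers of calls do not compare the size of the change. Among the 436 genes that rose by at least 1 in HET, 405 (92.9%) also rose in KO, and the other 31 all had a positive log2 change in KO, with a median of 0.55 there and 1.24 in HET. Among the 122 that fell by at least 1 in HET, 96 (78.7%) also fell in KO. The other 26 included 22 with a negative change in KO, with a median of -0.52 there and -1.25 in HET over all 26, and 7 of them passed without CD62Llo replicate 3. These genes were chosen by their change in HET, so the smaller medians in KO are a description and no finding.

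The difference between the KO and the HET change, tested as the interaction, passed for 1 gene of 11431 (0.00875%), the small RNA gene Mir1905, while 867 had an unadjusted p under 0.05. Klrg1, a lectin-like receptor of terminally differentiated cells, had FPKM of 0.129, 0.208 and 0.295 in CD62Lhi and 0.0663, 0.12 and 0.826 in CD62Llo of KO, which overlapped (log2 0.10, adjusted p = 0.884). In HET it was 0.316 and 0.131 against 4.89, 3.01 and 10.9 (log2 2.42), and the adjusted interaction p was 0.244. Prdm1 was 0.985, 1.12 and 1.0 against 1.23, 1.65 and 2.39 in KO (log2 0.42, adjusted p = 0.160) and rose by 1.57 in HET, with an adjusted interaction p of 0.266. For Klrg1 and Prdm1 the rise seen in HET was thus not called in KO, and the test of the difference did not pass. Il10 rose by 3.28 in HET, with an adjusted interaction p of 0.714. Satb1 fell by 1.49 in HET and by 0.74 in KO (interaction 0.75, SE 0.11, adjusted p = 0.114), and Lilrb4, an inhibitory receptor of the immunoglobulin family, rose by 2.89 and 1.40 (adjusted p = 0.128). Lsr, the lipolysis-stimulated lipoprotein receptor, named after its values were seen, rose by 1.46 in HET and had a log2 change of 0.14 in KO. Its interaction, with an adjusted p of 0.0771, was not called. Changes of near equal size stood beside these: Egr2 rose by 1.08 in HET and 1.07 in KO, Spry1 by 1.06 and 1.13, and Actg2 by 2.52 in both.

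**Figure D4:**
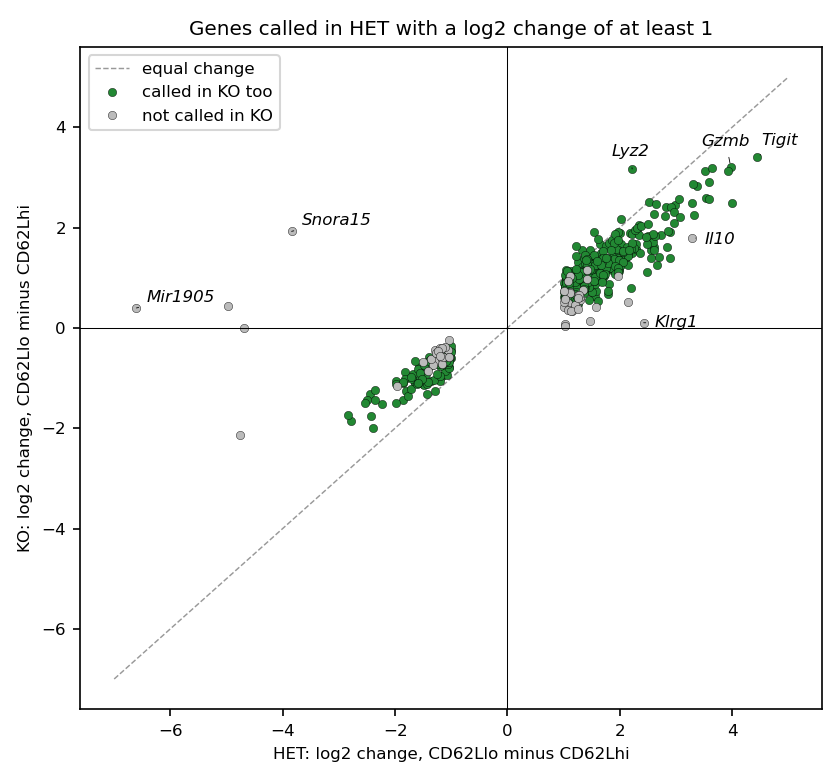
Log2 change between CD62Llo and CD62Lhi in KO (vertical) against HET (horizontal) for the 558 genes called in HET with an absolute log2 change of at least 1; green genes were also called in KO, grey genes were not, and the dashed line marks equal change. The genes were chosen for a large change in HET, so smaller changes in KO are no finding here. Klrg1 lies near 0 in KO, and the labelled small RNA genes Mir1905 and Snora15 fall far in HET and not in KO.

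Genes called in KO and not in HET numbered 142 higher and 44 lower, and 134 and 40 of them had the same sign in HET. By size they were led by genes of myeloid and B cells, Lyz1, Apoe, Cd63, Pla2g2d and Cd22. The calls of Apoe, Cd63, Pla2g2d and Cd22 were kept only when CD62Llo replicate 3 was the KO library left out, with adjusted p of 0.00378, 9.17e-04, 5.65e-04 and 0.00496 in that fit. In the other 5 fits the adjusted p ranged from 0.0922 to 0.110 for Cd63, from 0.0697 to 0.082 for Pla2g2d and from 0.0628 to 0.143 for Cd22. Syp, a synaptic vesicle protein gene, was 13.3, 10.7 and 9.30 against 19.9, 23.8 and 17.9 in KO (log2 0.83, adjusted p = 0.00347) and had a log2 change of 0.41 in HET, and the interaction did not pass (adjusted p = 0.685).

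Across lists, the members that rose or fell in KO were for the most part called in HET in the same direction. Over all tested genes the same held for 89.6% of the higher and 91.0% of the lower KO calls. The sharing below is therefore not particular to these lists. Of the inhibitory receptors all 11 rises in KO were also called in HET, of the effector factors 20 of 21, of the homing receptors 14 of 14 and of the helper lineage genes 15 of 15. All 5 falls among resting factors and 10 of 11 among resting surface genes were shared, and all 14 falls among interferon-stimulated genes. In the other direction 9 resting factors fell in HET and 5 of them in KO. The list medians in KO and HET were 0.86 and 1.29 for effector factors, 0.76 and 1.32 for inhibitory receptors, 1.08 and 1.51 for homing receptors, 0.98 and 1.78 for helper lineage genes, 1.13 and 1.14 for suppressive mediators, -0.13 and -0.34 for resting factors and -0.33 and -0.64 for resting surface genes. After quantile normalization and after median centring the KO counts were 20 higher and 0 lower for effector factors in both cases. They were likewise 10 and 0 for inhibitory receptors, 13 and 2 for homing receptors and 11 and 2 for suppressive mediators. Helper lineage genes had 14 and 0 with quantile normalization and 15 and 0 with median centring. In the same order, resting factors had 1 and 5, then 0 and 8, and resting surface genes 1 and 13, then 1 and 15.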

How the data were processed

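The 12 libraries held poly A RNA of sorted Tregs, sequenced as single-end reads per the labels' protocols. FPKM values per gene were deposited by the authors, one table per library with FPKM interval bounds, on the mm10 build. TopHat and Cufflinks 2.1.1 are named in the submitters' processing notes, with CASAVA 1.8.2 and FastQC. FPKM carries no read counts, so no count test was run. Entries of one gene symbol were summed, and genes with FPKM of at least 1 in at least 2 of 11 libraries were kept, 11431 in all. One HET CD62Lhi library was left out (589 entries above 0). Log2(FPKM + 1) was fitted with limma 3.58.1 in R 4.3.3, with 4 group means, a variance trend and Benjamini-Hochberg adjustment at 0.05. Relative depth was read from the interval bounds of 2970 entries. FPKM exceeded its own upper bound in 12.1% to 30.8% of entries above 1, so the bounds were used for nothing else.

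Genes were named by a rule: the 15 largest rises and 15 largest falls that were called, did not overlap and had a higher mean of at least 5, up to 5 called members of each of 31 lists, 10 fixed genes, and the largest differences between the KO and HET calls. Members, lists and rule were chosen with earlier results of these data known. Alternatives were other pseudocounts, filters, scalings, fits and left-out libraries. On simulated data with 200 of 11431 genes changed, the KO comparison recovered 69.3%, 94.3% and 98.5% of log2 changes of 0.5, 1 and 2. False calls averaged 8 per simulation. The changed genes were drawn from those with a KO CD62Lhi mean of log2(FPKM + 1) over 1, and the noise was normal and independent. No simulated library stood apart from its group, so these shares need not hold for the real libraries or for low genes. Plots used matplotlib 3.10.9. Some genes are not reported here.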

Additional observations from a re-analysis of the deposited data

Results flagged for a closer look

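Mir1905 (chr3:88536301-88536382), a small RNA gene, was picked out because its change between the fractions differed between the genotypes by a test of the difference. In KO it had FPKM of 195, 120 and 128 in CD62Lhi and 230, 209 and 143 in CD62Llo. In HET it had 60.9 and 152 in CD62Lhi and was listed at 0 in all 3 CD62Llo libraries. The difference of the log2 changes, KO minus HET, was 7.0 (SE 0.47, limma adjusted p = 9.06e-04). The call was lost with the replicate number as a block (adjusted p = 0.0548) and with HET CD62Lhi replicate 3 included (difference 4.8, adjusted p = 0.502), and the adjusted p over all alternatives ranged from 2.42e-05 to 0.502. Libraries made from poly A RNA are not designed to hold RNA of this size, and the part of library preparation in these values was not tested.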

How the results depend on the processing

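The 1852 genes called between the KO fractions became 64 when HET CD62Lhi replicate 3 was included, and 1187 to 1974 when 1 KO library was left out at a time. The 3163 HET calls became 355 and, without 1 HET library at a time, 1916 to 3137. The 1666 genes called in the same direction in both genotypes became 58, and 1122 to 1671 without 1 of the 11 libraries. The single interaction call became 4 without a filter on low values, 3 without the variance trend, 7 with array quality weights, 0 with HET CD62Lhi replicate 3 included and 1 to 5 when 1 library was left out. No named gene changed direction with a call, and of 130 named genes called, 100 kept their call under every alternative but the fit that included HET CD62Lhi replicate 3. Including HET CD62Lhi replicate 3 took 117 named genes out of the calls. Apart from it, the most named calls were lost without KO CD62Llo replicate 2 (26) among the left-out KO libraries and with the KO libraries alone (16) among the other settings. A fit with the replicate number as a block gave 2596 KO calls, 3553 HET calls, 2168 in both and 0 interaction calls. Same-numbered KO libraries deviated together only weakly (r of 0.131, 0.068 and 0.178), and KO pairs of different number had r of -0.178 to 0.086. Not every library correlated best with its own number. These r cannot decide whether same-numbered libraries are paired, since the deviations are taken from the mean of the same few libraries. The main fit treated them as unpaired. Differences in low genes are limited by a depth that FPKM does not state.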
